A study of Mus musculus with 6 samples.

Results

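Cytokines, chemokines and their receptors were followed in the substantia nigra of mice that carried human disease-linked alpha-synuclein and were fed freely or fasted at intervals. The members were all genes of the deposited count table whose symbol begins as a C-C or C-X-C chemokine or receptor, an interleukin or its receptor, Tnf, Tgfb or Cx3cl1. They numbered 109 of the 19251 genes in the table. The rule used names and no measured value, but it was chosen with earlier results of these data known. It takes in some proteins that carry such a name without being a cytokine, such as the Tnfaip genes, and it leaves out relatives with other names, such as Cx3cr1, Csf1 and Csf1r, which were followed in separate lists.

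The 6 libraries, 3 per diet, held polyadenylated RNA from the substantia nigra, the midbrain nucleus rich in dopaminergic neurons. Every mouse was C57BL/6 and carried rAAV-A53T-aSynuclein, a recombinant adeno-associated virus with the A53T form of alpha-synuclein, so no library here shows the effect of the virus itself. Mice of the ad libitum group had food at all times, and mice of the fasting group went without food for 24 hours on 3 days a week. Both diets began 2 weeks after surgery and lasted 10 weeks, with cage changes in both groups. Age, sex, the promoter of the vector and the time from the last fast to tissue collection were not given in the sources used here. Whether each library came from a separate animal was not given either, so p-values measure only the spread between these samples.

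Cytokines and chemokines are small secreted proteins that carry signals between cells of the immune system and, in the brain, between neurons, astrocytes, oligodendrocytes and microglia, the resident macrophages. Chemokines act on G protein-coupled receptors and guide cell movement, many interleukins act through receptor chains bound to JAK kinases, tumour necrosis factor family members act through NF-kB, and transforming growth factor beta acts through SMAD proteins. In the healthy brain, neuronal fractalkine and IL-34 and glial TGF-beta are known to hold microglia in their resting state.

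Total estimated counts ran from 42990234 to 48179706 per library. Ad libitum replicate 2 had the most RNA of cholinergic and hypothalamic neurons, at 526 CPM (counts per 1000000 counted reads, scaled between libraries) summed over Chat, Pmch and Hcrt, against 3.38 to 143 CPM in the other 5. Markers of dopaminergic neurons were present in every library, their 5 genes summing to 540 to 1442 CPM ad libitum and 493 to 1004 CPM under fasting. Ad libitum replicate 3 had the highest of these sums. It also had the highest sum of erythroid markers, at 1736 CPM against 254 to 657 CPM in the other 5. Of the 14 microglia markers, 14 had all fasting libraries below all ad libitum libraries, against 15.0% of all genes. Their sums were 415 to 579 CPM ad libitum and 329 to 334 CPM under fasting. The lowest ad libitum sum was that of replicate 1, which was also the ad libitum library nearest to fasting in several genes below. In whole tissue, fewer cells of a type and less RNA per cell cannot be told apart.

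Of the 109 members, 107 passed the filter on low counts, and 1 of them fell under fasting, Cxcl12. The test was edgeR's quasi-likelihood test over all genes, with a gene called at an adjusted p below 0.05. None rose. Over all 19109 genes tested, 0.497% were called, 0.351% lower and 0.147% higher. Below that threshold the members leaned to lower values under fasting: 73 of 107 had a log2 fold change (fasting minus ad libitum) below 0, which is 68.2% against 50.9% of all tested genes. The median log2 fold change was -0.23, against -0.0050 over all genes. An unadjusted p below 0.05 was reached by 29 members, against 20.4% of all genes. Of these 25 were lower and 4 higher, against 11.6% and 8.74% of all genes. In 35 members the groups did not overlap, against 27.5% of all genes. All fasting libraries were below all ad libitum libraries in 26, or 24.3% against 15.0% of all genes, and above in 9, or 8.41% against 12.5%.

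The count of calls moved with the tool and with the libraries used. DESeq2 called 5 members and 7.4% of all genes, limma-voom 0 members and 0.167%, and edgeR without ad libitum replicate 1 called 9 members and 6.18%. Without ad libitum replicate 2, 0 members and 0.235% of all genes were called, with 15 members at an unadjusted p below 0.05, and with the replicate number as a block 1 member and 1.49%.

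The lean was present at higher counts too. Of 74 members with a mean of at least 1 CPM, 52 had a log2 fold change below 0, with a median of -0.21, and 50.9% of all genes at that level were below 0. Over all levels, the receptor groups and the TGF-beta and TNF groups were mostly below 0, the chemokine receptors in 4 of 6. The chemokine ligands were not, with a median of 0.01 over 17 genes, Ccl21b and Ccl21d included. Over the 11 ligands with a mean of at least 1 CPM the median was 0.03. The microglia markers were all lower as well, with a median of -0.60, and their part in the members' values was not tested except where a ratio to them is given below. The 2 members that did not pass the filter were Ccl3, a chemokine of activated microglia, with 7 to 22 counts per library, and Il20ra, with 3 to 29.

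**Figure D1:**
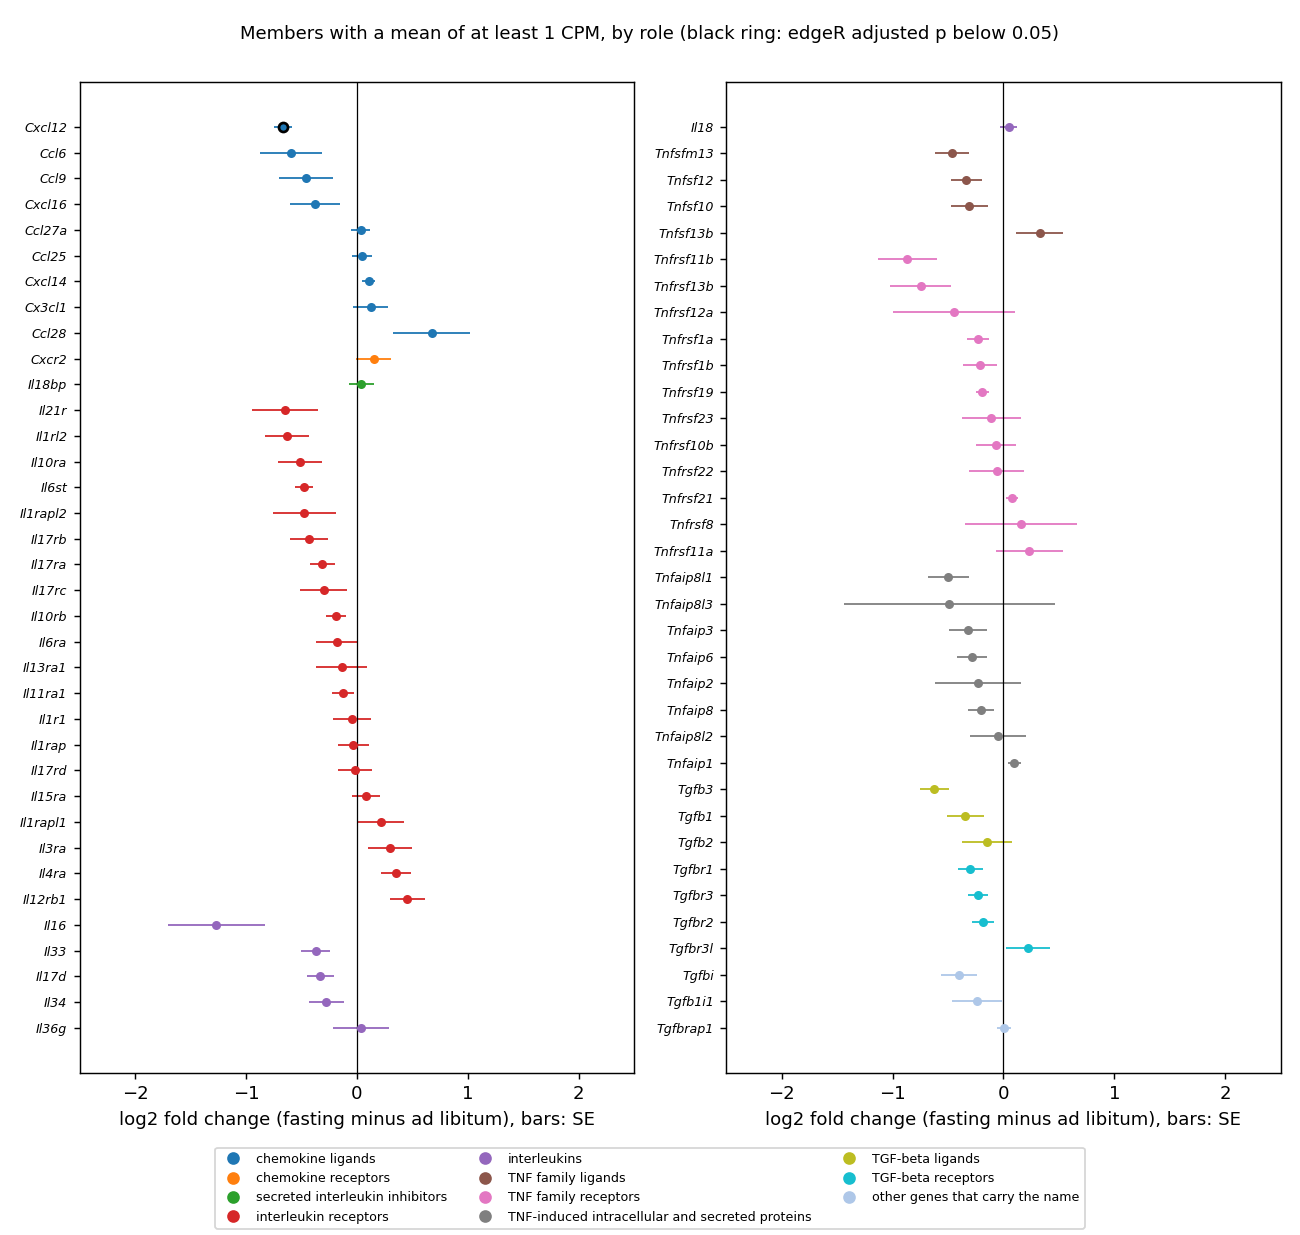
Log2 fold change (fasting minus ad libitum, horizontal axis) with its standard error for 71 members with a mean of at least 1 CPM, coloured by role; Ccl21b and Ccl21d are left out because their reads cannot be told apart, and 1 other member is not reported here. Of these, 50 lie below 0 and 21 above, and only Cxcl12, ringed in black, passed an edgeR adjusted p of 0.05.

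Cxcl12, also known as stromal cell-derived factor, is a chemokine of endothelial cells, meninges and some neurons that guides cells bearing Cxcr4. It stood at 48, 49.6 and 41.1 CPM in ad libitum replicates 1, 2 and 3, and at 28.4, 28.7 and 30.3 CPM in fasting replicates 1, 2 and 3. The lowest ad libitum library was clearly above the highest fasting library, and the fasting libraries lay close together. Mean levels were 46.2 ± 4.49 CPM ad libitum and 29.1 ± 0.989 CPM under fasting (SD, n = 3), a 1.59-fold fall. On the log2 scale the change was -0.67 (SE 0.08, adjusted p = 0.0422 by edgeR).

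Between alternatives the size of the fall in Cxcl12 ran from -0.62 to -0.74 on the log2 scale, but the call lay near the threshold. It was lost without ad libitum replicate 2 or 3 or any fasting library (adjusted p = 0.0601 to 0.287), with limma-voom (0.0541) and without robust shrinkage (0.0503), and DESeq2 gave an adjusted p of 5.02e-08.

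Markers of the cell types that could hold Cxcl12 were set beside it. The 7 endothelial markers summed to 211 to 246 CPM ad libitum and 199 to 215 CPM under fasting, and the 4 pericyte markers to 149 to 180 and 128 to 142 CPM. As a percentage of the endothelial sum, Cxcl12 was at 19.5, 21.5 and 19.5% ad libitum and at 13.6, 14.4 and 14.1% under fasting. As a percentage of the pericyte sum it was at 26.6, 28.8 and 27.5% and at 22.3, 21.3 and 21.3%. Relative to both vascular sums, and to the neuronal sum, all fasting libraries were therefore still lower. Relative to the sums of microglia, astrocyte, oligodendrocyte and fibroblast markers the groups overlapped. The microglia ratio was 11.6, 8.57 and 7.58% against 8.65, 8.63 and 9.06%. The endothelial markers differed among themselves, with 6 lower and 1 higher under fasting. Tek, Kdr and Cdh5 had log2 fold changes of -0.55, -0.49 and -0.45, and Slco1a4 one of 0.28, each without overlap. Flt1 (-0.25) and Slco1a4 had the highest mean levels of the 7, at 78.7 and 52.6 CPM. Rgs5 (-0.38) had the highest of the 4 pericyte markers, at 110 CPM. Whether Cxcl12 differed from single markers was not tested.

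The promoters of Cxcl12, of Il6st, the member of next smallest p, and of Cx3cl1, the most abundant chemokine per length and one that was not called, are shown to compare their sequence. Each runs from 250 bases before to 50 after a transcript start, 5′ to 3′, from RefSeq on GRCm38.p6, an older build than the GRCm39 of the counts. Capitals mark GC boxes, the motif GGGCGG on either strand.
Cxcl12: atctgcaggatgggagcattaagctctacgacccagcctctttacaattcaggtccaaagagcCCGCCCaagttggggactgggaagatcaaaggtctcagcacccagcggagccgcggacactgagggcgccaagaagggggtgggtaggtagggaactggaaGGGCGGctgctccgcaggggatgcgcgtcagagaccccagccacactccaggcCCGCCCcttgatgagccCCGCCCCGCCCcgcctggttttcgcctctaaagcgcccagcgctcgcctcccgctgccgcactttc
Il6st: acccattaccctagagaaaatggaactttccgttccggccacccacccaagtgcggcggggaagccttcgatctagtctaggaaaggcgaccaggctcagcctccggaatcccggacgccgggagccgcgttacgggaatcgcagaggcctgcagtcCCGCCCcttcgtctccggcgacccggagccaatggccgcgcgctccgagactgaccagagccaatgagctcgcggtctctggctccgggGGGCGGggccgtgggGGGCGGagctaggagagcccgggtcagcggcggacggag
Cx3cl1: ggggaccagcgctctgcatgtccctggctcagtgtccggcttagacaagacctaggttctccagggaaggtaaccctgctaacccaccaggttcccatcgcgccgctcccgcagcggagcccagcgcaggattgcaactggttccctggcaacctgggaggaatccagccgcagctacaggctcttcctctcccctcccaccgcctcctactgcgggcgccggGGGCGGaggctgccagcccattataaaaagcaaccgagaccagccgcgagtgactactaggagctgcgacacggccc

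These windows lie at chr6:117168285-117168584 (plus strand), chr13:112463820-112464119 (plus strand) and chr8:94771930-94772229 (plus strand). They hold 5, 3 and 1 GC boxes, 2 of those of Cxcl12 overlapping by a base, and their GC content is 64.7, 68.3 and 64.7%. GC boxes occur in 35.7% of all 32851 RefSeq promoter windows and in 48.5% of the 103 windows of the 85 members with an entry. The NF-kB consensus, searched on both strands, was in none of the 3 windows, in 15.5% of member windows and in 8.46% of all windows. The AP-1 motif TGANTCA was in 17.5% and 7.81%, and the STAT motif TTCNNNGAA in 9.71% and 8.30%. A match is a description of letters and not a site of binding, and the motifs were chosen with results known.

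Among the other chemokine ligands none passed. Cx3cl1, or fractalkine, is a membrane-bound chemokine of neurons and was the most abundant ligand per length of transcript, at 71.7 CPM per kilobase. It stood at 322, 267 and 220 CPM ad libitum against 334, 258 and 289 CPM under fasting. The groups overlapped throughout (log2 fold change 0.12, SE 0.16, adjusted p = 0.701 by edgeR). Its only receptor, Cx3cr1, is found on microglia and is one of the microglia markers. It was at 49.6, 73.9 and 68.0 CPM ad libitum against 40.6, 41.7 and 41.6 CPM under fasting, without overlap but not called (-0.63, SE 0.14, adjusted p = 0.0897 by edgeR).

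Cxcl14, a chemokine of neurons and epithelia, was next in level per length, at 33.7 CPM per kilobase. Its values were 62.6, 57.5 and 57.7 CPM ad libitum and 62.0, 67.3 and 62.1 CPM under fasting, and the groups overlapped (log2 fold change 0.11, SE 0.06). Ccl28, a mucosal chemokine, was at 1.08, 2.68 and 2.74 CPM ad libitum against 3.75, 2.84 and 3.77 CPM under fasting. All 3 fasting libraries were above the ad libitum ones, and ad libitum replicate 1 was far below the other 2 of its group (log2 fold change 0.67, SE 0.35, adjusted p = 0.338 by edgeR). The myeloid chemokines Ccl6 and Ccl9 had log2 fold changes of -0.59 and -0.46, and Cxcl16, a membrane-bound ligand of Cxcr6, -0.37, none called.

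At very low levels, Ccl17, a chemokine of dendritic cells that attracts T cells, had 8, 5 and 1 counts ad libitum and 29, 14 and 21 under fasting. All fasting libraries were higher, and the log2 fold change was 2.25 (SE 0.58, adjusted p = 0.104 by edgeR), a difference that DESeq2 alone called (adjusted p = 0.0426). Cxcl10, the interferon-induced chemokine, was between 0.107 and 0.614 CPM in all libraries, with full overlap.

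Ccl21b and Ccl21d are near-identical copies of a chemokine of lymphatic vessels, and their values cannot be read separately. All of the transcript sequence of Ccl21b and 97.1% of that of Ccl21d, in words of 31 bases, occurs in other genes. Ccl21d had 219, 0 and 157 counts ad libitum and 181, 0 and 0 under fasting, while Ccl21b had 0, 16 and 0 and then 0, 185 and 203. Reads were thus listed under one copy or the other in each library. Summed, they were at 219, 16 and 157 counts ad libitum and 181, 185 and 203 under fasting, which leaves ad libitum replicate 2 as the one low library. Ccl27a shares 57.0% and Ccl19 58.8% of its sequence with copies, so these values are uncertain too.

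**Figure D2:**
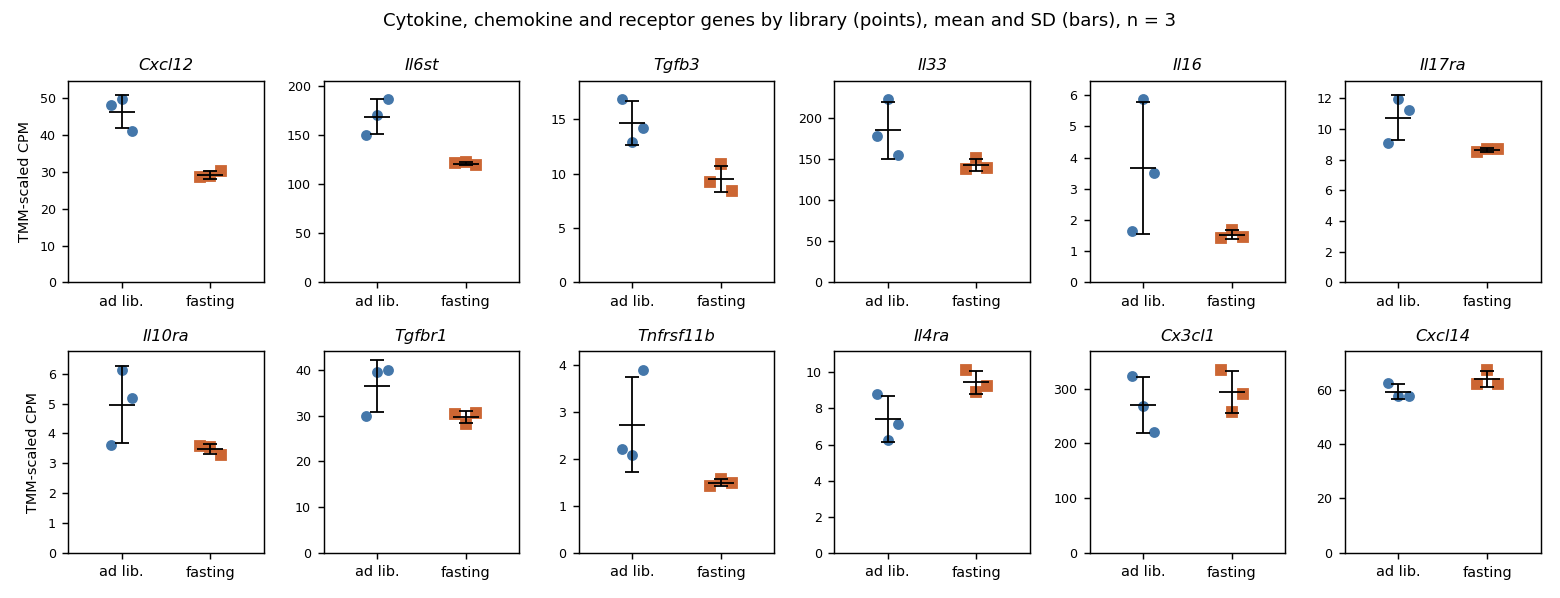
Scaled CPM (vertical axes, from 0) of 12 members in each library, ad libitum as circles and fasting as squares, with mean and SD. Cxcl12, Il6st and Tgfb3 show separate groups, Il16 and Tgfbr1 show a low ad libitum replicate 1, Il4ra lies higher under fasting, and Cx3cl1 and Cxcl14 overlap.

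Chemokine receptors were low in this tissue, the 6 tested members all below 6 CPM on average, and none was called. Cxcr4, the receptor of Cxcl12, was at 0.699, 0.785 and 1.15 CPM ad libitum and 1.0, 0.416 and 0.853 CPM under fasting. The groups overlapped and its direction turned when ad libitum replicate 3 or fasting replicate 2 was left out. Ackr3, the receptor that binds and clears Cxcl12, was at 6.94, 7.85 and 7.76 CPM against 6.98, 6.54 and 5.91 CPM (log2 fold change -0.21, SE 0.11, adjusted p = 0.314 by edgeR). Ccr2, which marks monocytes that enter from blood, had a log2 fold change of -1.12 (SE 0.53) with overlapping groups, between 0.213 and 1.18 CPM. Of the monocyte and neutrophil markers, Ly6g and Retnlg were not among the genes of the count table. The other 3 summed to 1.27 to 1.78 CPM ad libitum and 1.53 to 2.69 CPM under fasting.

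Among the 12 interleukins, 5 had an unadjusted p below 0.05, all lower under fasting (11.6% of all genes), and none was called. Il33, an alarmin held in the nuclei of astrocytes and oligodendrocytes, was the most abundant per length, at 56.7 CPM per kilobase. It was at 177, 222 and 154 CPM ad libitum against 137, 151 and 139 CPM under fasting. The groups met closely, fasting replicate 2 lying just under ad libitum replicate 3 (log2 fold change -0.37, SE 0.13, adjusted p = 0.184 by edgeR). The oligodendrocyte markers summed to 13352 to 18182 CPM ad libitum and 9434 to 11839 CPM under fasting. Relative to that sum, Il33 was at 1.33, 1.22 and 1.15% and at 1.45, 1.28 and 1.38%, so the groups overlapped. Relative to the neuronal sum it was at 4.46, 8.21 and 4.75% against 3.52, 4.26 and 3.92%, without overlap. Set against the astrocyte sum, Il33 was at 6.64, 6.89 and 4.29% against 5.13, 6.44 and 5.34%, with overlap. Its groups also overlapped relative to the microglia, endothelial, pericyte and fibroblast sums. The astrocyte markers differed among themselves, with 5 lower and 1 higher under fasting. Gfap and Aqp4 had log2 fold changes of -1.51 and -1.01, both without overlap, and Slc1a3 one of 0.18, with overlap. Slc1a2 (-0.10) had the highest mean level of the 6, at 1585 CPM. Il33 was not set against single markers.

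The receptor of IL-33 is made of Il1rl1 and Il1rap. Il1rl1 was scarce, at 0.381, 0.516 and 0.663 CPM ad libitum and 0.159, 0.231 and 0.256 CPM under fasting. The groups did not overlap (log2 fold change -1.26, SE 0.34, adjusted p = 0.115 by edgeR). Il1rap, the chain shared with the IL-1 receptor, was at 106, 77.8 and 76.7 CPM against 92.5, 83.3 and 79.2 CPM, and its direction turned without ad libitum replicate 1 or fasting replicate 3.

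Il16, whose precursor yields a ligand of CD4, had the lowest log2 fold change of all tested members, -1.27 (SE 0.44, adjusted p = 0.182 by edgeR). It was at 1.65, 5.86 and 3.51 CPM ad libitum against 1.41, 1.69 and 1.47 CPM under fasting. The size rested on ad libitum replicates 2 and 3, since replicate 1 lay among the fasting libraries. Leaving out 1 library at a time moved the log2 fold change from -1.62 to -0.76, the smallest without ad libitum replicate 2, the library with the most RNA of cholinergic and hypothalamic neurons. The 3 T and NK cell markers analysed (Cd4, Cd8a and Lck) summed to 15.5 CPM in that library, 14.1 of it Cd4, and to 1.30 to 2.43 CPM in the other 5, and their part in the values of Il16 was not tested. Il16 was called by DESeq2 (adjusted p = 0.0431) and without ad libitum replicate 1 (0.0243).

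Il34 and Csf1 are the ligands of Csf1r, the receptor that microglia need to survive. Il34, made by neurons, was at 12.7, 19.5 and 16.4 CPM ad libitum against 12.6, 14.5 and 13.1 CPM under fasting, with overlap (log2 fold change -0.27, SE 0.15). Csf1 was at 29.2, 37.5 and 35.9 CPM against 24.8, 26.7 and 26.5 CPM (-0.39, SE 0.10, adjusted p = 0.103 by edgeR). Csf1r was at 86.2, 124 and 111 CPM against 69.5, 70.1 and 72.3 CPM (-0.60, SE 0.13, adjusted p = 0.0792 by edgeR). For Csf1 and Csf1r the groups did not overlap, and ad libitum replicate 1 was the nearest to fasting. Without that library both were called (adjusted p = 0.0183 and 0.0111), and DESeq2 called both.

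Il17d, a secreted IL-17 family member, was at 7.13, 6.77 and 6.05 CPM ad libitum against 4.96, 4.95 and 5.97 CPM under fasting, without overlap (log2 fold change -0.33, SE 0.12, adjusted p = 0.203 by edgeR). Il18, an IL-1 family cytokine released by inflammasomes, was at 12.4 to 13.4 CPM and 12.4 to 13.9 CPM (0.05, SE 0.08), and Il18bp, its secreted inhibitor, at 4.72 to 5.37 CPM and 4.74 to 5.39 CPM (0.04, SE 0.11). These were among the flattest members. Il1a, the IL-1 made by microglia in the brain, was at 0.783, 0.929 and 1.03 CPM ad libitum against 0.387, 0.624 and 0.597 CPM under fasting. The groups did not overlap, and the gene did not pass (log2 fold change -0.76, SE 0.26, adjusted p = 0.172 by edgeR). Tnf, Il1b, Il6, Il10, Il1rn, Ccl2, Ccl4 and Ccl5 were not among the genes of the count table. They could therefore not be analysed here.

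Of 29 tested interleukin receptor genes, 7 lower and 2 higher had an unadjusted p below 0.05 and 9 had all fasting libraries below the others, with 0 called. The shares over all genes were 11.6%, 8.74% and 15.0%. Il6st encodes gp130, the chain shared by receptors for IL-6, IL-11, LIF and CNTF, and was the most abundant per length. It was at 150, 170 and 186 CPM ad libitum against 122, 122 and 119 CPM under fasting. The fasting libraries were tightly grouped under the whole ad libitum range, from 169 ± 18.2 to 121 ± 1.64 CPM (SD, n = 3). The log2 fold change was -0.48 (SE 0.08) and just missed the threshold (adjusted p = 0.0618 by edgeR), while DESeq2 called it, as did edgeR without ad libitum replicate 1 (adjusted p = 0.0152).

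Relative to the astrocyte marker sum Il6st was at 5.62, 5.28 and 5.18% ad libitum and at 4.55, 5.21 and 4.56% under fasting, and relative to the microglia sum at 36.2, 29.4 and 34.3% and at 37.0, 36.8 and 35.7%. The groups overlapped in both, and also relative to the endothelial, pericyte, fibroblast and oligodendrocyte sums. The astrocyte markers differed among themselves, as given for Il33, and Il6st was not set against single markers. Relative to the neuronal marker sum every fasting library was lower, at 3.77, 6.28 and 5.74% against 3.12, 3.45 and 3.35%. The 4 neuronal markers themselves all had log2 fold changes above 0, with a median of 0.14 and overlapping groups. None of the partners of gp130 was called. Lifr, the LIF receptor, was at 58.7, 57.0 and 61.1 CPM against 51.0, 51.0 and 54.1 CPM, without overlap (log2 fold change -0.18, SE 0.05, adjusted p = 0.132 by edgeR). Cntfr, the CNTF receptor of neurons, was at 107, 83.9 and 88.5 CPM against 88.9, 86.2 and 91.7 CPM (-0.07, SE 0.09), and Il6ra at 5.97, 8.71 and 6.18 CPM against 6.53, 4.97 and 6.93 CPM (-0.18, SE 0.19). Both overlapped. Il11ra1 had a log2 fold change of -0.12 (SE 0.10), with 57.7% of its sequence shared with copies. Whether Il6st differed from its partners was not tested.

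**Figure D3:**
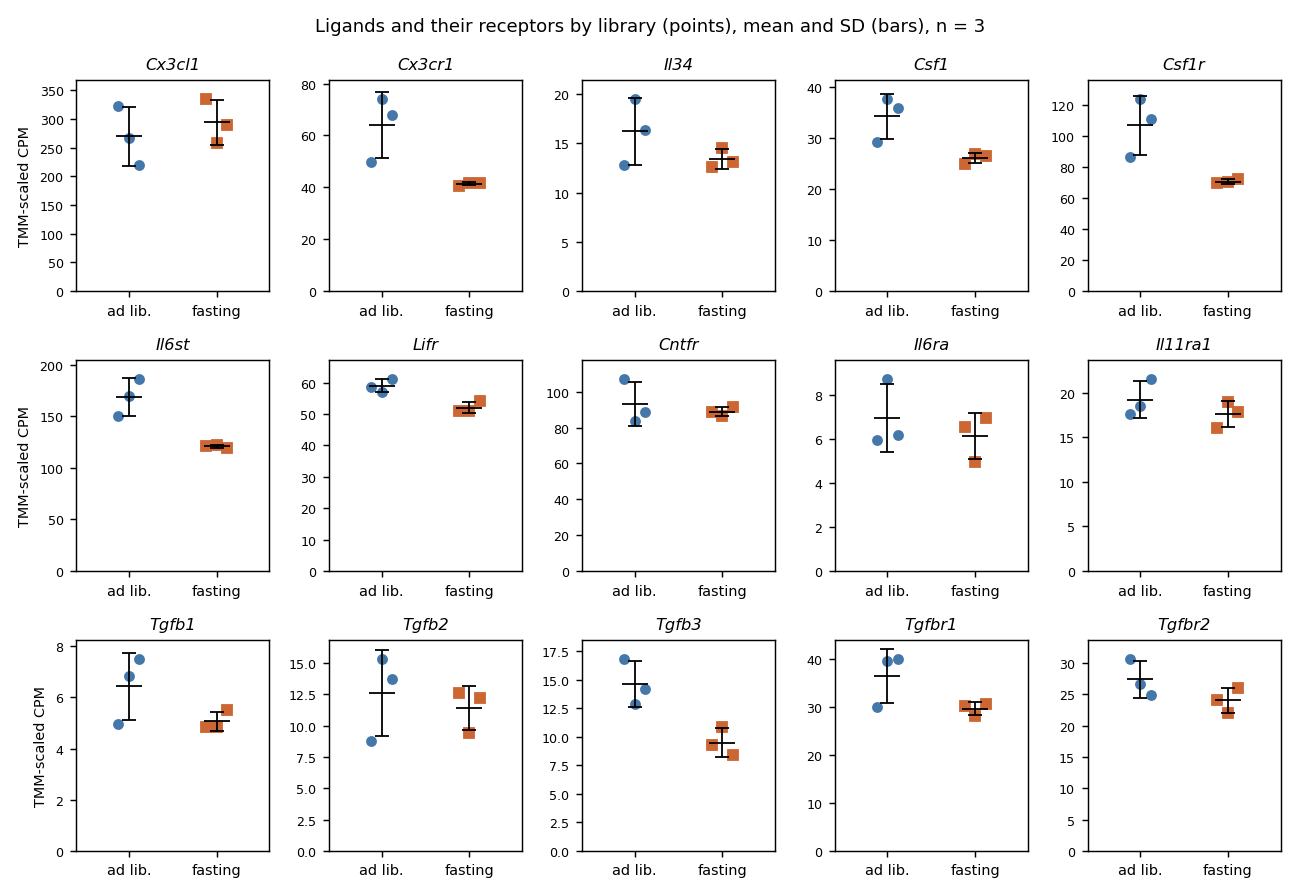
Scaled CPM (vertical axes, from 0) by library of fractalkine, CSF1 receptor, gp130 and TGF-beta ligands and receptors, ad libitum as circles and fasting as squares, with mean and SD. Cx3cr1, Csf1, Csf1r, Il6st, Lifr and Tgfb3 have groups that do not overlap, and the other 9 genes overlap.

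Both chains of the IL-10 receptor had lower values under fasting, and receptors with higher values are given further below. Il10ra, the ligand-binding chain of the IL-10 receptor, was at 3.60, 6.13 and 5.17 CPM ad libitum against 3.59, 3.56 and 3.28 CPM under fasting. Ad libitum replicate 1 lay just above the highest fasting library (log2 fold change -0.51, SE 0.20, adjusted p = 0.216 by edgeR), and without it the gene was called (adjusted p = 0.0392). As a percentage of the microglia marker sum it was at 0.868, 1.06 and 0.954% and at 1.09, 1.07 and 0.983%, with overlap. Il10rb, its widely expressed partner, was at 7.26, 7.17 and 7.18 CPM against 5.91, 6.40 and 6.59 CPM, without overlap (-0.19, SE 0.09).

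The IL-17 receptor chains Il17ra, Il17rb and Il17rc had log2 fold changes of -0.31, -0.43 and -0.30, and Il17rd, which also restrains FGF signalling, -0.01. Il17ra was at 9.06, 11.9 and 11.2 CPM against 8.50, 8.72 and 8.68 CPM. The groups did not overlap (SE 0.11, adjusted p = 0.195 by edgeR). Its ratio to the microglia marker sum went the other way, at 2.18, 2.06 and 2.06% ad libitum and at 2.59, 2.62 and 2.60% under fasting. Its ratios to the endothelial, pericyte, fibroblast, astrocyte, oligodendrocyte and neuronal sums overlapped between the groups. The IL-36 receptor gene Il1rl2 was at 1.29, 1.18 and 1.33 CPM against 0.728, 0.971 and 0.746 CPM, without overlap (-0.63, SE 0.20, adjusted p = 0.151 by edgeR). Il21r, a receptor of lymphocytes, had the lowest log2 fold change among interleukin receptors of at least 1 CPM, -0.65 (SE 0.30).

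A few receptors were higher in value under fasting. Il4ra, the chain that binds IL-4 and, with Il13ra1, IL-13, was at 8.79, 6.28 and 7.12 CPM ad libitum against 10.1, 8.92 and 9.25 CPM under fasting. All fasting libraries were above (log2 fold change 0.35, SE 0.14, adjusted p = 0.216 by edgeR). Il13ra1 overlapped fully, at 10.9 to 19.4 CPM and 11.8 to 16.9 CPM. Il12rb1, a chain of the IL-12 and IL-23 receptors, was at 1.59, 1.69 and 1.62 CPM against 2.52, 2.01 and 2.2 CPM, again without overlap (0.46, SE 0.16, adjusted p = 0.174 by edgeR). Il1r1, the signalling IL-1 receptor, was at 4.51 to 6.73 CPM and 4.67 to 5.76 CPM, and Il1rapl1, an organiser of synapses rather than an immune receptor, at 13.2 to 20.5 CPM and 15.0 to 21.6 CPM. Both overlapped.

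Of the 15 TNF family receptors, 12 had a log2 fold change below 0 and none was called. Tnfrsf21, or death receptor 6 of neurons, was the most abundant per length and was at 83.7, 81.6 and 81.0 CPM ad libitum against 83.9, 91.9 and 84.7 CPM under fasting. The fasting libraries were slightly above (log2 fold change 0.08, SE 0.05, adjusted p = 0.453 by edgeR). Tnfrsf19, a receptor of neural progenitors and glia, was at 43, 38.4 and 40.8 CPM against 35.6, 36.1 and 35.4 CPM, without overlap (-0.19, SE 0.06, adjusted p = 0.142 by edgeR). Tnfrsf11b, or osteoprotegerin, the secreted decoy of RANK ligand, was at 2.2, 2.09 and 3.89 CPM against 1.41, 1.57 and 1.49 CPM, also without overlap (-0.87, SE 0.27, adjusted p = 0.143 by edgeR).

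Neither receptor of TNF itself was called. Tnfrsf1a was at 11.8, 13.6 and 12.8 CPM ad libitum against 11, 11.9 and 9.70 CPM under fasting (log2 fold change -0.23, SE 0.10), and Tnfrsf1b, of microglia, at 4.91, 6.11 and 6.05 CPM against 4.46, 4.44 and 5.84 CPM (-0.21, SE 0.16). Both pairs of groups overlapped, with edgeR adjusted p-values of 0.268 and 0.496. Tnfrsf13b, a receptor of B cells for BAFF, had a log2 fold change of -0.75 (SE 0.28, adjusted p = 0.196 by edgeR) at 0.512 to 1.42 CPM. Of the 4 B cell markers listed, the 1 analysed was at 0.508 to 0.832 CPM in all libraries. Tnfrsf12a was at 11.7 CPM in ad libitum replicate 1 and between 3.35 and 5.57 CPM in the other 5 libraries, and Tnfrsf11a, the receptor RANK, turned direction without ad libitum replicate 2.

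Among 8 TNF family ligands none was called. Tnfsf12, or TWEAK, was at 6.86, 8.30 and 8.59 CPM ad libitum against 5.30, 6.66 and 6.89 CPM under fasting (log2 fold change -0.33, SE 0.14). It shares 47.4% of its sequence with the fused transcript gene Tnfsfm13, which overlaps it and Tnfsf13, so the 3 cannot be fully separated. Tnfsfm13 had a log2 fold change of -0.47 (SE 0.15, adjusted p = 0.161 by edgeR). Tnfsf10, or TRAIL, was at 3.22, 3.43 and 3.72 CPM against 2.89, 2.29 and 3.20 CPM, barely apart (-0.31, SE 0.16). Tnfsf13b, or BAFF, was at 6.80, 3.99 and 4.36 CPM against 6.87, 5.71 and 6.40 CPM (0.33, SE 0.21). Ad libitum replicate 1 lay with the fasting libraries, and without it Tnfsf13b was called higher at 0.60 (adjusted p = 0.0495).

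The 8 Tnfaip genes are named for induction by TNF or, as Tnfaip8l1, for likeness to Tnfaip8. Of these 7 had a log2 fold change below 0, with a median of -0.26, and none was called. Tnfaip6, a hyaluronan-binding protein, was at 23.0, 29.8 and 22.2 CPM ad libitum against 19.5, 23.3 and 18.9 CPM under fasting, with overlap (log2 fold change -0.28, SE 0.13). Tnfaip3, the ubiquitin-editing enzyme A20 that damps NF-kB, was at 2.58, 3.06 and 3.53 CPM against 2.71, 2.15 and 2.49 CPM (-0.32, SE 0.17). Tnfaip1, an adaptor of a cullin ubiquitin ligase, was at 37.9 to 39.0 CPM and 39.6 to 43.7 CPM, and Tnfaip8 had a log2 fold change of -0.20 (SE 0.12). Tnfaip8l1 had the lowest log2 fold change of the 8, -0.50 (SE 0.18, adjusted p = 0.195 by edgeR).

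The 3 TGF-beta ligands all had lower values under fasting, and none was called. Tgfb3 was at 16.8, 12.9 and 14.2 CPM ad libitum against 9.28, 10.8 and 8.40 CPM under fasting. Every fasting library was lower, and the means were 14.6 ± 2.00 and 9.51 ± 1.24 CPM (SD, n = 3). The log2 fold change was -0.62 (SE 0.13, adjusted p = 0.0798 by edgeR), which DESeq2 called (adjusted p = 0.00386). Relative to the endothelial marker sum Tgfb3 was at 6.85, 5.59 and 6.70% and at 4.44, 5.44 and 3.91%, without overlap. Relative to the neuronal sum it was at 0.423, 0.477 and 0.436% against 0.238, 0.306 and 0.236%, also without overlap. Relative to the sums of microglia, pericyte, fibroblast, astrocyte and oligodendrocyte markers the groups overlapped. The endothelial markers differed among themselves, as given for Cxcl12, and Tgfb3 was not set against single markers.

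Tgfb1, the ligand made mainly by microglia in the brain, was at 4.98, 6.84 and 7.50 CPM ad libitum against 4.84, 4.86 and 5.50 CPM under fasting, with overlap (log2 fold change -0.35, SE 0.17, adjusted p = 0.304 by edgeR). Relative to the microglia marker sum it was at 1.20, 1.18 and 1.38% and at 1.47, 1.46 and 1.65%, higher in every fasting library. Relative to the endothelial, pericyte, fibroblast, astrocyte, oligodendrocyte and neuronal sums the groups overlapped. Tgfb2, made by astrocytes and neurons, was at 8.74, 15.3 and 13.8 CPM against 12.6, 9.39 and 12.2 CPM. Its groups overlapped and its direction turned without ad libitum replicate 2.

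The signalling receptors Tgfbr1 and Tgfbr2 had log2 fold changes of -0.30 (SE 0.12) and -0.19 (SE 0.10), and the co-receptor Tgfbr3 -0.23 (SE 0.09), with edgeR adjusted p-values of 0.213, 0.341 and 0.226. Tgfbr1 was at 30.0, 39.6 and 40.1 CPM ad libitum against 30.3, 28.2 and 30.6 CPM under fasting. Ad libitum replicate 1 again lay within the fasting range, and without it Tgfbr1 was called (-0.42, adjusted p = 0.0231). Relative to the microglia marker sum Tgfbr1 was at 7.22, 6.85 and 7.38% and at 9.21, 8.48 and 9.16%, higher under fasting. Relative to the sums of endothelial, pericyte, fibroblast, astrocyte, oligodendrocyte and neuronal markers its groups overlapped. Tgfbi, a matrix protein induced by TGF-beta, was at 5.53, 7.72 and 7.54 CPM against 4.82, 6.01 and 4.90 CPM (-0.40, SE 0.16, adjusted p = 0.233 by edgeR), and the endosomal protein Tgfbrap1 was flat, at 59.1 to 66.7 CPM in all libraries.

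Genes that carry these signals inside cells were read from 5 fixed lists, in which 0 of 127 tested genes were called by edgeR. At an unadjusted p below 0.05, 29 were lower and 9 higher, against 11.6% and 8.74% of all genes. The median log2 fold change was -0.13. DESeq2 called 4 of the receptors and ligands with other names, 3 JAK-STAT, 2 NF-kB, 1 IL-1 and 4 TGF-beta genes, and 7.4% of all genes. Of 13 genes of IL-1 signalling and the inflammasome, 6 were lower and 2 higher at that level, with a median of -0.31. Pycard, the inflammasome adaptor ASC, was at 2.69, 3.49 and 3.25 CPM ad libitum against 1.59, 1.71 and 1.51 CPM under fasting. The groups did not overlap (log2 fold change -0.97, SE 0.16), and the gene missed the threshold narrowly (adjusted p = 0.0599 by edgeR). Adam17, the protease that sheds TNF, had a log2 fold change of -0.31 (SE 0.08, adjusted p = 0.110 by edgeR).

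In the TGF-beta and SMAD list, 6 of 27 genes were lower and 3 higher at an unadjusted p below 0.05, with a median of -0.15. The inhibitory SMADs, which are themselves induced by this pathway, were the 2 of smallest p. Smad6 was at 2.43, 2.62 and 2.35 CPM ad libitum against 1.39, 1.34 and 1.47 CPM under fasting (log2 fold change -0.82, SE 0.15, adjusted p = 0.0638 by edgeR). Smad7 was at 38.8, 39.7 and 36.7 CPM against 28.0, 32.6 and 29.3 CPM (-0.36, SE 0.07, adjusted p = 0.0712 by edgeR). Neither overlapped between diets, and DESeq2 called both. Smad2, a signal carrier, was higher in every fasting library, at 46.9, 46.0 and 46.0 CPM against 54.9, 53.3 and 53.7 CPM (0.22, SE 0.05, adjusted p = 0.0721 by edgeR).

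In the NF-kB list, 5 of 29 genes were lower and 2 higher at an unadjusted p below 0.05, with a median of -0.12. The NF-kB subunit gene Rel was at 5.02, 4.56 and 5.90 CPM ad libitum against 3.75, 3.21 and 3.28 CPM under fasting, without overlap (log2 fold change -0.59, SE 0.14, adjusted p = 0.0943 by edgeR). Fadd, the adaptor of death receptors, had a log2 fold change of -0.55 (SE 0.14, adjusted p = 0.103 by edgeR), and Nfkbia, the NF-kB inhibitor, one of 0.30 (SE 0.10). In the JAK-STAT list, 3 of 25 (12%) were lower, near the 11.6% of all genes, and 1 higher, with a median of -0.02. Socs4, an inhibitor of cytokine signalling, was at -0.35 (SE 0.08, adjusted p = 0.0841 by edgeR) and Pias3, an inhibitor of STAT3, at 0.26 (SE 0.06, adjusted p = 0.100 by edgeR). Of 33 receptors and ligands with other names, 9 were lower and 1 higher, with a median of -0.23, among them Csf1r and Cx3cr1 above.

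**Figure D4:**
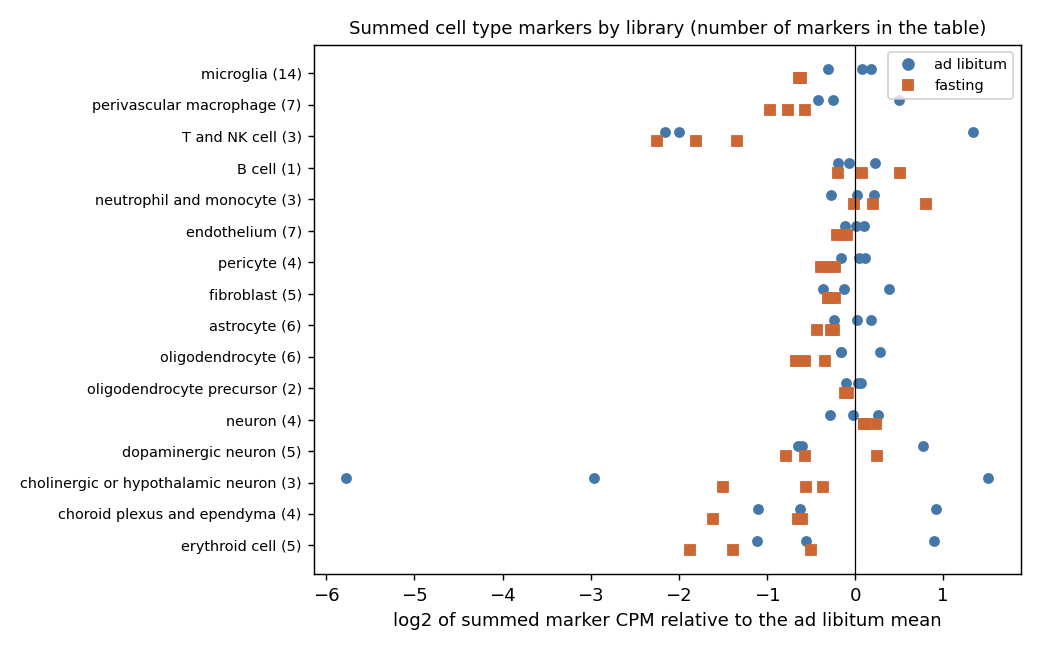
Log2 of the summed CPM of fixed cell type markers in each library relative to the ad libitum mean (horizontal axis), ad libitum as circles and fasting as squares, with the number of markers in the table. The fasting libraries lie below all ad libitum libraries for microglia, perivascular macrophages, pericytes and oligodendrocytes, and ad libitum replicate 2 holds the highest cholinergic and hypothalamic sum.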

How the data were processed

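Polyadenylated RNA of the substantia nigra was sequenced in 6 libraries, 3 per diet, grouped by their titles. The authors deposited 1 table of estimated counts, whole numbers not scaled between libraries, for 19251 genes, with a smallest sum of 60 per gene over the 6 libraries. Salmon, DESeq2 1.40.2 and build GRCm39 (mm39) are named per the submitters' processing notes. Their roles, the annotation release and the use of strand were not given in the sources used here. Reads of genes with near-identical copies may be split between them.

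The counts were tested with edgeR 4.0.16 (R 4.3.3): filterByExpr kept 19109 genes, TMM factors scaled the libraries, and a two-sided quasi-likelihood test with robust shrinkage and Benjamini-Hochberg adjustment over all tested genes compared the diets. Each SE is the absolute log2 fold change over the root of its F statistic. Depth was similar in all libraries, and counting error adds to the spread of members with few counts. The fit was also run on simulated counts, drawn independently for each gene and library. Those counts hold no shift in tissue make-up between libraries, and no result here rests on them. An exact permutation of 3 against 3 libraries cannot give p below 0.1, so none was run. Alternatives were DESeq2 1.42.0, limma-voom (limma 3.58.1), RLE factors, no filter, a mean count of at least 50, no robust shrinkage, a replicate block and each library left out in turn.

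Length per gene and shared 31-base words came from GENCODE M21 on GRCm38, another build, so levels per length are approximate. Members and lists were chosen with earlier results of these data known. Named genes were a fixed set, called members, and per role up to 4 members of smallest p, the 3 of highest mean CPM and the largest rise and fall, with at least 1 CPM for p and change. Each signalling list added its 2 genes of smallest p. Others named were chosen after their values were seen. Results for some members and markers are not reported here. Unused columns of per-sample values numbered 0.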

Additional observations from a re-analysis of the deposited data

How the results depend on the processing

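The median log2 fold change of the members that each alternative tested was below 0 in all 13 alternatives, over 71 members at a mean count of at least 50 and 107 to 109 in the others. Leaving out 1 library at a time gave -0.28 to -0.19, and the median over all genes stayed near 0. The count of members called was 1 and became 0 without robust shrinkage and with limma-voom (30 and 24 at an unadjusted p below 0.05) and 5 with DESeq2, namely Cxcl12, Il6st, Tgfb3, Il16 and Ccl17. Leaving out 1 library at a time gave 0 to 9 members, the 9 without ad libitum replicate 1, and 0 to 1187 of all genes. Over all genes 95 calls became 9 without robust shrinkage, 32 with limma-voom, 285 with the replicate block and 1395 with DESeq2. In the signalling lists 0 calls became, with DESeq2, 4 of other receptors and ligands, 3 of JAK-STAT, 2 of NF-kB, 1 of IL-1 and 4 of TGF-beta genes. Leaving out 1 library gave 0 to 4, 0 to 2, 0 to 1, 0 to 1 and 0 to 3.

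Deviations of same-numbered libraries correlated at 0.206, -0.0386 and -0.106, and those of differently numbered libraries at -0.136 to 0.194. With 3 libraries per group these values cannot show whether the replicate numbers pair the libraries. With the replicate block 1 member was called, again Cxcl12, and 1 JAK-STAT gene, Socs6, added to 0 without it. The cause of these changes was not tested.

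Of 67 tested genes that the naming rule above picked, 56 kept their direction throughout. The other 11 crossed 0. Cxcl10 did so with the replicate block (-0.083) and limma-voom (-0.22). Leaving out 1 library at a time moved Cx3cl1 from -0.0050 to 0.27, Cxcl10 from -0.56 to 0.45, Cxcr4 from -0.47 to 0.076, Il18bp from -0.0022 to 0.095, Il1r1 from -0.17 to 0.11, Il1rap from -0.12 to 0.14. It moved Il6ra from -0.28 to 0.011, Tgfb1i1 from -0.41 to 0.038, Tgfb2 from -0.35 to 0.013, Tgfbrap1 from -0.056 to 0.039 and Tnfrsf11a from -0.037 to 0.58. Members named outside that rule were not counted. Of these, Il13ra1 (-0.33 to 0.069), Il17rd (-0.11 to 0.13), Tnfrsf12a (-0.75 to 0.43), Ccl27a (-0.045 to 0.10) and Ccl19 (-0.19 to 0.14) also crossed 0.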
